A study of Rattus norvegicus with 17 samples.

Results

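The dose series took in every library of the study, 17 of 17, ordered by the amount of dipentyl phthalate (DPeP) given to the dam. DPeP is a plasticizer of the phthalate ester class. The study sequenced polyA-selected RNA of rat fetal testis on gestational day 21, after daily oral gavage of the dam with DPeP in corn oil, 2.5 mL/kg, from gestational day 17. All animals were wild-type Sprague Dawley rats, and the controls received the corn oil alone. There were 3 libraries of vehicle (replicates 01, 08 and 15), 3 at 1 mg/kg/d (02, 09 and 10), 3 at 11 mg/kg/d (03, 16 and 17), 3 at 100 mg/kg/d (05, 18 and 19) and 5 at 300 mg/kg/d (06, 07, 13, 14 and 20). Each library held RNA of 1 or 2 testes from a single litter. The labels do not tie libraries to dams, so p-values measure the spread between these samples, which may in part be technical.

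The fetal testis holds cords of Sertoli cells around germ cells, and between the cords lie Leydig cells, fibroblasts, vessels and macrophages. Fetal Leydig cells turn cholesterol into testosterone. They import it into mitochondria with Star, cut it with Cyp11a1 and pass it through Hsd3b1 and Cyp17a1. They also secrete Insl3, the hormone of testis descent. Phthalate esters are known for lowering this output in fetal rats. In RNA of whole testis, fewer cells of a type and less RNA per cell cannot be told apart. The question of the dose series was at which dose each gene moved and whether it went on moving above that dose.

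Depth was similar throughout, with 14282274 to 20323488 gene counts per library and 21466 to 22529 genes with a count. A pair of libraries at 100 mg/kg/d, replicates 05 and 18, differed from the rest. Mitochondrially encoded genes made up 9.05% and 7.76% of their counts, where the other 15 libraries ranged from 4.35% to 6.16%. Ribosomal protein genes made up 7.49% and 6.81%, where the others ranged from 4.24% to 5.41%. Many counts and calls that changed without these libraries are given both ways. Some list counts that also changed are given for all libraries only. They are those of androgen synthesis and its control, cholesterol uptake, fatty acid synthesis, glutathione transferases, xenobiotic metabolism, and Sertoli and Leydig cell markers. The part of these libraries in a result was not tested. Of 92 named genes called by the slope, described below in part, 91 were also called without them, the exception being Scg2 (fitted change 0.56, adjusted p = 0.0648, edgeR). The libraries also carry 1 of 3 sample codes in their labels, and the labels do not say what it stands for. Code S447 covers 8 libraries and S448 covers 7, each with all 5 groups, and S446 covers 1 vehicle library and 1 at 1 mg/kg/d.

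Each of 18005 expressed genes was fitted with 1 slope on log2(dose + 1), a scale on which the groups lie at 0, 1, 3.58, 6.66 and 8.23. The slope is given below as the fitted log2 change from 0 to 300 mg/kg/d. By edgeR's quasi-likelihood test, 1030 genes (5.72%) were called at an adjusted p under 0.05, of which 494 rose (2.74%) and 536 fell (2.98%). The fitted change reached 1 log2 unit, a 2-fold difference, in 134 of the genes that fell and 107 of those that rose, and the median over all genes was 0.03. The genes with the smallest adjusted p all fell. They were led by Mrap, an accessory protein of the melanocortin receptors, followed by Olfm2, an olfactomedin, Stc2, a stanniocalcin, Entpd5, a nucleotidase, and Gsta2, a glutathione transferase. Of the 15 smallest, 14 had a graded shape, and the exception was Slc7a8, an amino acid transporter. The graded shape is a line on log2(dose + 1), which is what the slope tests. Ranking by the slope therefore favours it, and no conclusion is drawn from this share.

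Star, Cyp17a1, Cyp11a1 and Fdx1 of androgen synthesis fell with dose. Star, the carrier of cholesterol into mitochondria, stood at 549, 659 and 688 CPM in vehicle, 562, 382 and 345 at 1 mg/kg/d, 421, 379 and 397 at 11 mg/kg/d, 252, 209 and 222 at 100 mg/kg/d, and 165, 176, 114, 191 and 96.0 at 300 mg/kg/d. The libraries of each dose from 11 mg/kg/d up lay below every vehicle library, those at 100 mg/kg/d lay below every library at 11, and those at 300 lay below every library at 100. At 1 mg/kg/d the libraries overlapped both vehicle and 11 mg/kg/d. Group means were 68.0%, 63.1%, 36.1% and 23.4% of vehicle in order of dose, and the fitted change was -1.92 (SE 0.179, adjusted p = 3.34e-07, edgeR).

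Cyp17a1 makes the androgen precursors. Its 3 vehicle libraries held 1641, 1286 and 1584 CPM, against 1258, 923 and 798 at 1 mg/kg/d, 828, 752 and 698 at 11, 772, 618 and 519 at 100, and 417, 408, 281, 394 and 235 at 300 mg/kg/d. All 3 libraries at 1 mg/kg/d lay below the lowest vehicle library, and libraries at 1, 11 and 100 mg/kg/d overlapped with their neighbours. The means were 66.1%, 50.5%, 42.3% and 23.1% of vehicle (fitted change -1.80, SE 0.188, adjusted p = 1.75e-06, edgeR). No step between neighbouring doses was called for this gene, and the smallest adjusted p was that from 100 to 300 mg/kg/d, 0.0837.

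Cyp11a1, the side-chain cleavage enzyme, and its electron carrier Fdx1 fell as well, and differed at the low end. Cyp11a1 was as high at 1 mg/kg/d (1073, 955 and 848 CPM) as in vehicle (1078, 618 and 1051). It then stood at 775, 633 and 601 CPM at 11, 408, 380 and 429 at 100, and 304, 303, 287, 292 and 215 at 300 mg/kg/d, where replicate 20 lay apart below the other 4. Vehicle and 11 mg/kg/d overlapped through vehicle replicate 08, and both upper doses lay below all other libraries (fitted change -1.81, SE 0.145, adjusted p = 4.65e-08, edgeR). Fdx1 had means of 78.6%, 64.3%, 44.8% and 29.8% of vehicle (fitted change -1.62, SE 0.156, adjusted p = 5.52e-07, edgeR).

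Of the 14 androgen synthesis genes tested, 7 fell and none rose, beside 2.98% and 2.74% of all genes. Their median fitted change was -0.54 against 0.03 over all genes, and it was -0.65 without replicates 05 and 18. Beside Star, Cyp17a1, Cyp11a1 and Fdx1, the genes that fell were Fdxr, Por and Hsd17b1. Hsd3b1 was not called (fitted change -0.50, adjusted p = 0.294, edgeR). It stood at 1224, 1155 and 1343 CPM in vehicle, 1507, 1926 and 726 at 100 mg/kg/d, and 790, 711, 628, 764 and 533 at 300 mg/kg/d, so the top dose lay below vehicle while replicates 05 and 18 lay above it. Without those libraries the fitted change of Hsd3b1 was -0.84 (adjusted p = 6.98e-05, edgeR). Its reads may be shared with near-identical family members, so its level is uncertain. Hsd17b3, the last enzyme of testosterone synthesis, was not called and had a positive fitted change of 0.47 (adjusted p = 0.0745, edgeR).

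**Figure D1:**
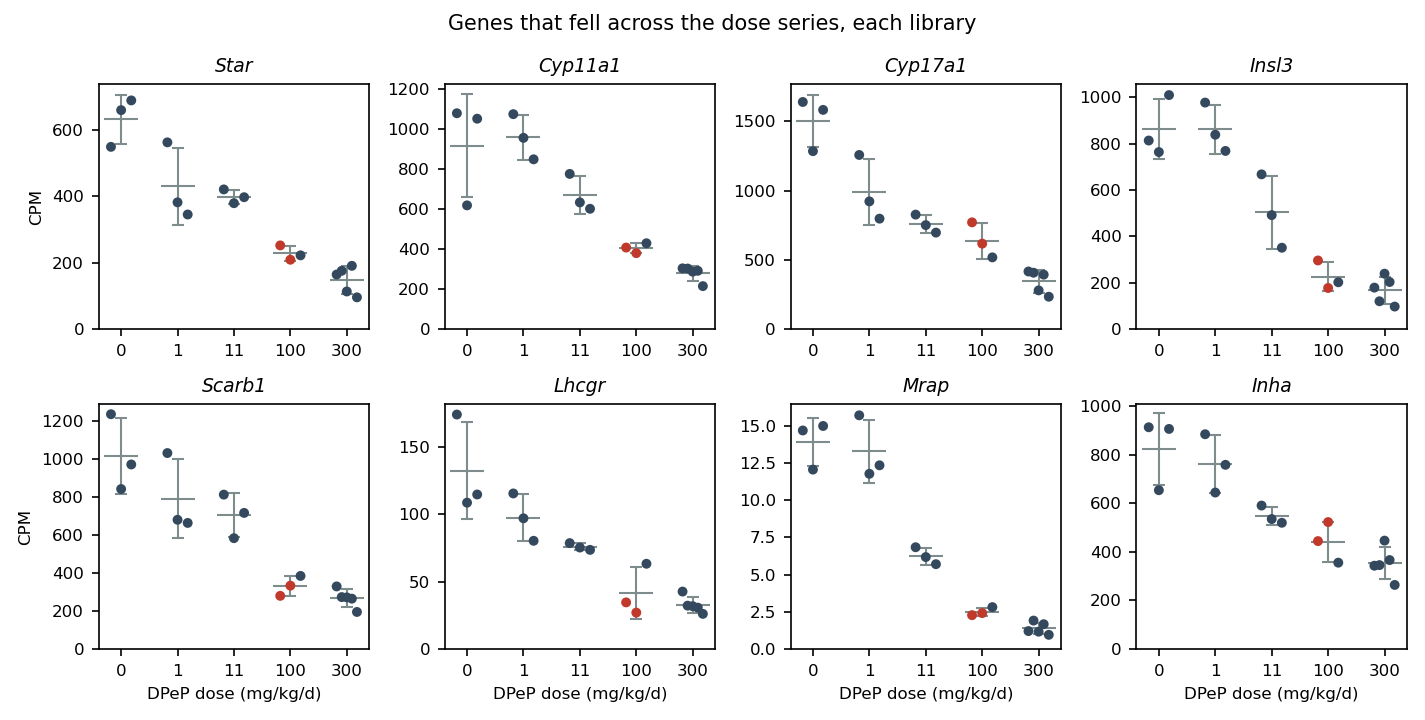
CPM of 8 genes that fell, for each of the 17 libraries (points), with group mean and SD (grey bars), by dose in mg/kg/d on an evenly spaced axis; red points are replicates 05 and 18 at 100 mg/kg/d. At 1 mg/kg/d the means of Star and Cyp17a1 were 68.0% and 66.1% of vehicle, and those of Mrap and Insl3 95.4% and 99.9%. Mrap and Insl3 were lower from 11 mg/kg/d. No gene was called between vehicle and 1 mg/kg/d, and a difference in onset between genes was not tested.

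Insl3, the other hormone of Leydig cells, was at 99.9% of vehicle at 1 mg/kg/d and lower from 11 mg/kg/d. It held 814, 764 and 1010 CPM in vehicle and 977, 839 and 769 at 1 mg/kg/d, and then 668, 492 and 351 at 11, 297, 178 and 203 at 100, and 179, 121, 240, 204 and 97.8 at 300 mg/kg/d. Vehicle and 1 mg/kg/d overlapped, 11 mg/kg/d lay between them and the upper doses without overlap, and 100 and 300 mg/kg/d overlapped (fitted change -2.53, SE 0.209, adjusted p = 6.51e-08, edgeR). Whether the onset differs between Insl3 and Star was not tested. Between vehicle and 11 mg/kg/d directly, edgeR called no gene, and the smallest adjusted p of any gene was 0.0604. The receptor Scarb1, which takes up lipoprotein cholesterol, had means of 77.9%, 69.3%, 32.8% and 26.3% of vehicle, and its graded shape was only slightly better than a threshold at 100 mg/kg/d.

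Lhcgr and Prlr, both from the list of steroid synthesis control, fell. Lhcgr, the receptor for luteinizing hormone, read 174, 109 and 115 CPM in vehicle, 115, 97.0 and 80.3 at 1 mg/kg/d, 78.6, 75.3 and 73.6 at 11, 34.6, 27.1 and 63.3 at 100, and 42.7, 32.2, 31.8, 30.7 and 26.1 at 300 mg/kg/d. The libraries at 11 mg/kg/d lay below every vehicle library and above every library of the upper doses, which overlapped each other (fitted change -1.95, SE 0.177, adjusted p = 2.29e-07, edgeR). Prlr, the prolactin receptor, had means of 112%, 74.8%, 38.7% and 21.6% of vehicle (fitted change -2.32, SE 0.255, adjusted p = 3.71e-06, edgeR).

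Mrap had the smallest adjusted p of all genes. It lies on chromosome 11, 29992034 to 30003024, of mRatBN7.2. Vehicle held 14.7, 12.1 and 15.0 CPM, 1 mg/kg/d held 15.7, 11.8 and 12.3, 11 mg/kg/d held 6.84, 6.18 and 5.71, 100 mg/kg/d held 2.28, 2.42 and 2.82, and 300 mg/kg/d held 1.21, 1.92, 1.17, 1.67 and 0.957. From 11 mg/kg/d up, no group overlapped its neighbour (fitted change -3.41, SE 0.173, adjusted p = 4.23e-11, edgeR). The adrenal enzyme Cyp11b1, at 13.2, 8.54 and 14.1 CPM in vehicle, fell further, to means of 18.2% of vehicle at 100 and 4.88% at 300 mg/kg/d (fitted change -3.93, SE 0.405, adjusted p = 1.55e-06, edgeR). Akr1b7, an aldose reductase family member also listed as an adrenal marker, rose (fitted change 0.99, adjusted p = 0.0252, edgeR), a call lost with the sample code in the model, on dose itself, on the rank of the dose, without the 300 mg/kg/d group, and without any of 4 libraries: vehicle replicate 01, 1 mg/kg/d replicates 09 and 10, and 300 mg/kg/d replicate 07.

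Of 20 genes that control steroid synthesis, 7 fell and 1 rose, beside 2.98% and 2.74% of all genes. Nr0b1, a nuclear receptor that restrains steroid genes, fell with means of 87.3%, 78.4%, 63.2% and 51.3% of vehicle (fitted change -0.90, SE 0.108, adjusted p = 1.36e-05, edgeR). Nr5a1, the nuclear receptor that activates them, was not called (fitted change -0.33, adjusted p = 0.0692, edgeR), at 103%, 95.9%, 74.8% and 85.5% of vehicle. Without replicates 05 and 18 its fitted change was -0.28 (adjusted p = 0.0433, edgeR). The gene that rose was Nr4a1, an immediate early gene and orphan receptor. It held 12.9, 15.2 and 18.5 CPM in vehicle, 19.1, 19.1 and 33.9 at 100 mg/kg/d, and 27.1, 32.8, 37.3, 37.7 and 35.1 at 300 mg/kg/d, where all 5 libraries were above vehicle (fitted change 1.07, SE 0.154, adjusted p = 0.000129, edgeR). Of the 19 immediate early genes tested, no other was called, beside 5.72% of all genes called. None of the 13 steroid and nuclear hormone receptors was called by edgeR, although 4 had an unadjusted p under 0.05 and DESeq2 called 1. Nr3c1, the glucocorticoid receptor, had a fitted change of 0.00 (SE 0.0742, adjusted p = 0.981, edgeR).

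Of 21 cholesterol synthesis genes tested 7 fell and none rose, against 2.98% of all genes that fell, and 12 fell without replicates 05 and 18. The list's medians against vehicle were -0.39, -0.30, -0.32 and -0.49 log2 units in order of dose, and no single gene was called at 1 mg/kg/d. By library, the list's median was -0.46 to -0.28 at 1 mg/kg/d and -0.09 to 0.08 in vehicle, and replicate 17 at 11 mg/kg/d, at -0.05, lay inside the vehicle range. Hmgcs1, a synthase early in the pathway, held 265, 340 and 351 CPM in vehicle, 217, 220 and 195 at 1 mg/kg/d, 228, 210 and 262 at 11, 245, 215 and 164 at 100, and 207, 184, 130, 152 and 168 at 300 mg/kg/d. Every treated library lay below every vehicle library, and the libraries at 1, 11 and 100 mg/kg/d overlapped (fitted change -0.67, SE 0.145, adjusted p = 0.00649, edgeR).

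Msmo1, a sterol oxidase, had the same course, with means of 63.5%, 68.9%, 62.0% and 50.1% of vehicle. Its best shape was a plateau from 1 mg/kg/d, given to only 4 called genes, none of them clear against the next best shape. The calls of Hmgcs1 and Msmo1 were lost without the 300 mg/kg/d group. Of 20 genes for uptake, storage and export of cholesterol 5 fell and 2 rose, beside the 2.98% and 2.74% of all genes. Of 13 fatty acid synthesis genes, 4 fell, led by Acss2, which makes acetyl-CoA, at 102%, 78.0%, 61.2% and 49.4% of vehicle.

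Detoxification genes held the steepest slope of the named genes. Gsta2, on chromosome 8, 79184322 to 79196798, held 25.6, 10.6 and 13.9 CPM in vehicle and 15.0, 22.3 and 14.6 at 1 mg/kg/d. It stood at 3.57, 4.64 and 4.14 CPM at 11, 0.678, 0.36 and 0.197 at 100, and 0, 0.0563, 0.234, 0.519 and 0 at 300 mg/kg/d. Vehicle and 1 mg/kg/d overlapped, 11 mg/kg/d lay apart from both sides, and the upper doses overlapped (fitted change -6.75, SE 0.443, adjusted p = 1.67e-09, edgeR). Gsta1 fell less, to 35.2% of vehicle at 300 mg/kg/d. The other 15 tested transferases were not called, beside 5.72% of all genes that were. Reads of these near-identical genes may have been split between them, which makes their levels uncertain.

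Other metabolic and stress lists moved in few members, to be read against 5.72% of all genes called, 2.98% fell and 2.74% rose. Of 16 oxidative stress genes 3 fell, Sod2, Gclc and Gsr, and the call of Gsr was lost under 20 of 27 alternatives. Of 25 genes of PPAR targets and fatty acid oxidation 5 fell, and 9 fell and 1 rose without replicates 05 and 18. Of 19 genes of hypoxia and glycolysis 3 fell, and 1 with the sample code in the model. Pgk1 and Eno1, enzymes of glycolysis, had a plateau from 11 mg/kg/d, with means of 72.7% and 73.3% of vehicle at that dose and 69.4% and 71.4% at 300. Both calls were lost with the sample code in the model, on dose itself and without the 300 mg/kg/d group, and that of Eno1 also without vehicle replicate 15. Of 19 genes of the integrated stress and unfolded protein responses 2 fell, Ddit4 and Xbp1. Ddit4, an inhibitor of mTOR signalling, was lowest at 100 mg/kg/d, at 74.3%, 57.6%, 39.7% and 47.9% of vehicle (fitted change -1.03, adjusted p = 0.000208, edgeR). Of 12 xenobiotic metabolism genes 2 rose, Tiparp and Cyp2e1, and 1 with the sample code in the model.

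Shapes were described for the 1030 called genes by fitting 6 patterns to log2 CPM and keeping that with the smallest residual sum of squares. The genes were chosen by the slope on log2(dose + 1), so the shares favour the graded pattern and those close to it. A threshold at 100 mg/kg/d was best for 452 genes (43.9%), a graded line for 379 (36.8%), a change at the top dose only for 99 (9.61%) and a plateau from 11 mg/kg/d for 93 (9.03%). A plateau from 1 mg/kg/d was best for 4 and a peak at 100 mg/kg/d for 3. Only 360 were clear, meaning that the next best pattern left a residual sum at least 25% larger: 202 thresholds, 86 graded, 57 top dose, 14 plateaus and 1 peak. For 417 of the 452 thresholds the next best pattern was graded. Without replicates 05 and 18, the same 1030 genes divided into 344 thresholds, 438 graded, 142 top dose, 101 plateaus from 11, 4 from 1 and 1 peak.

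**Figure D2:**
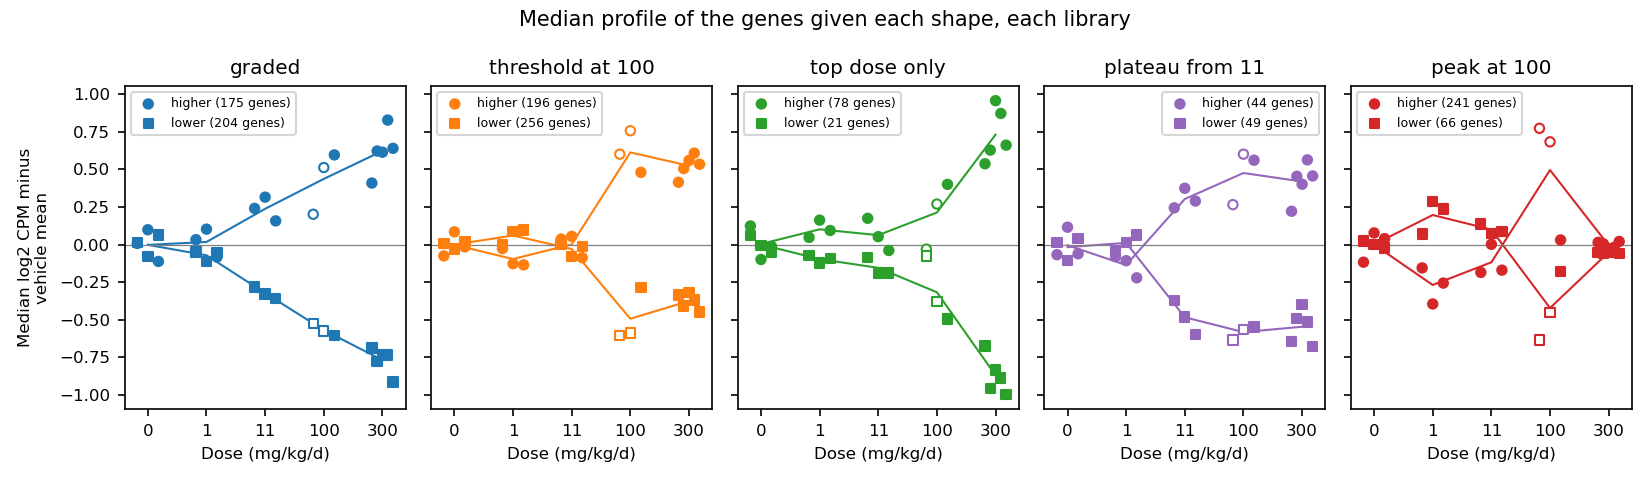
Median log2 CPM relative to the vehicle mean, for each library (points) and each dose group (line through the means), of genes given each shape, with circles for genes higher and squares for genes lower; the first 4 panels hold genes called by the slope and the last holds genes called among the groups but not by the slope, and open symbols are replicates 05 and 18. In the last panel the median of the genes higher at 100 mg/kg/d was 0.77 and 0.68 in replicates 05 and 18 and 0.03 in replicate 19.

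A formal test of departure from the straight line, with 3 degrees of freedom, called 0 genes (0.0%) by edgeR, although 3325 had an unadjusted p under 0.05 and DESeq2 called 902. The smallest adjusted p was 0.117, and without replicate 19 at 100 mg/kg/d the count was 4745. The shapes are therefore a description of group means, and no gene's departure from a line passed this edgeR test. Graded genes that fell had medians of -0.08, -0.35, -0.59 and -0.81 log2 units in order of dose, and those that rose 0.04, 0.24, 0.45 and 0.61. Genes with a threshold that fell had 0.06, -0.03, -0.49 and -0.37, and those that rose -0.12, -0.01, 0.61 and 0.54. In replicate 19 alone the threshold medians at 100 mg/kg/d were -0.28 and 0.48. Genes higher at the top dose only had 0.10, 0.06, 0.23 and 0.82.

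The steps between neighbouring doses differed in how many genes were called at the adjusted cutoff. From vehicle to 1 mg/kg/d edgeR called 0 genes (0.0%), with 891 at an unadjusted p under 0.05 and a smallest adjusted p of 0.864. DESeq2 also called 0. From 1 to 11 mg/kg/d edgeR called 1 (0.00555%), and from 11 to 100 mg/kg/d 854 (4.74%), with 467 higher (2.59%) and 387 lower (2.15%). From 100 to 300 mg/kg/d it called 1 (0.00555%). Before adjustment, 804, 4903 and 4362 genes had a p under 0.05 by edgeR at these steps in order of dose. The upper steps were thus much closer in unadjusted than in adjusted counts. With no effect of dose, a share of about 0.05 of the 18005 genes would have an unadjusted p under 0.05. The counts of the lower steps, 891 and 804, did not exceed that share. Leaving out both replicates 05 and 18 leaves 1 library at 100 mg/kg/d, so no step count of that fit is given. The count from 11 to 100 mg/kg/d became 0 without replicate 18 alone. It also became 16 without replicate 05, 25 without replicate 03 and 14 without replicate 17, the last pair being 11 mg/kg/d libraries. Without replicate 19 it became 5886, and without any 1 of the other 12 libraries it lay between 256 and 577. The count from 100 to 300 mg/kg/d became 5872 without replicate 19. Set directly against vehicle, 11 mg/kg/d had no gene called by edgeR. There 633 genes had an unadjusted p under 0.05, and the smallest adjusted p was 0.0604.

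Dusp27, a dual-specificity phosphatase family member, was the gene called from 1 to 11 mg/kg/d. It lies on chromosome 13, 78349365 to 78378458. It held 5.64, 6.81 and 5.89 CPM in vehicle and 4.49, 3.90 and 6.30 at 1 mg/kg/d, and then 14.9, 15.6 and 12.2 at 11, 10.5, 11.0 and 15.9 at 100, and 11.5, 9.46, 16.5, 14.0 and 10.8 at 300 mg/kg/d. All 11 libraries from 11 mg/kg/d up lay above all 6 below it, with no further rise in the means. The step was 1.53 log2 units (adjusted p = 0.0265, edgeR), and the call was lost without any of 5 libraries: 11 mg/kg/d replicates 03 and 16, 1 mg/kg/d replicates 02 and 09, and vehicle replicate 15.

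Cpe, carboxypeptidase E of prohormone processing, was the gene called from 100 to 300 mg/kg/d. It lies on chromosome 16, 25030276 to 25142233. The 12 libraries up to 100 mg/kg/d lay between 10.3 and 18.9 CPM, at 11.9, 12.1 and 12.9 in vehicle, 13.0, 16.8 and 11.9 at 1, 15.7, 10.9 and 10.3 at 11, and 14.7, 18.9 and 13.7 at 100 mg/kg/d. At 300 mg/kg/d it held 33.4, 31.8, 29.0, 37.5 and 36.8 CPM, all above the rest. The step was 1.09 log2 units (adjusted p = 0.0143, edgeR). It was 1.30 without replicates 05 and 18, which leaves 1 library at 100 mg/kg/d. The call was lost without replicate 05 (adjusted p = 0.0968, edgeR), 14 (0.0612) or 20 (0.0618). It was also lost once the sample code was added to the model (0.0626).

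**Figure D3:**
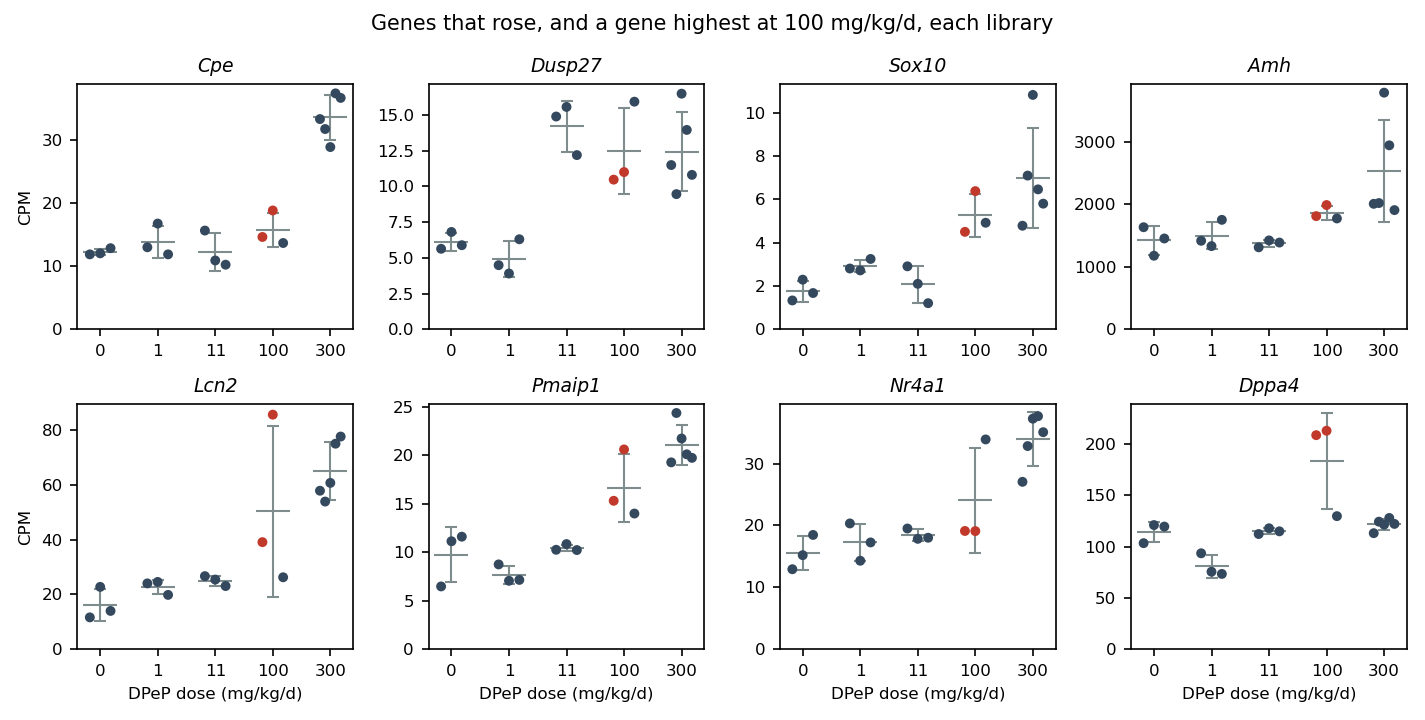
CPM of 7 genes that rose and of Dppa4, which peaked at 100 mg/kg/d, in each of the 17 libraries (points) with group mean and SD (grey bars), by dose in mg/kg/d on an evenly spaced axis; red points are replicates 05 and 18 at 100 mg/kg/d. Cpe was high only at 300 mg/kg/d, Dusp27 was high from 11 mg/kg/d, and Dppa4 was high in replicates 05 and 18 at 209 and 213 CPM.

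Of 22 Sertoli cell markers tested 8 rose and 3 fell, against 2.74% and 2.98% of all genes, with shapes of a threshold at 100 mg/kg/d for 5, top dose only for 3 and graded for 3. Sox10, a SOX factor, held 1.33, 2.29 and 1.67 CPM in vehicle, 2.81, 2.72 and 3.25 at 1 mg/kg/d, 2.91, 2.10 and 1.20 at 11, 4.50, 6.38 and 4.92 at 100, and 4.78, 7.10, 10.8, 6.46 and 5.80 at 300 mg/kg/d. The upper doses lay above all libraries of the lower groups and overlapped each other (fitted change 1.81, SE 0.273, adjusted p = 0.000231, edgeR). Its relative Sox9 was not called (fitted change 0.36, adjusted p = 0.188, edgeR), but passed without replicates 05 and 18 (0.44, adjusted p = 0.014, edgeR).

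Amh, the Müllerian duct inhibitor, had vehicle values of 1634, 1177 and 1453 CPM, and 1811, 1989 and 1774 at 100 mg/kg/d, against 2008, 2021, 3788, 2945 and 1908 at the top dose. All libraries at 100 and 300 mg/kg/d were above vehicle, and 1 and 11 mg/kg/d overlapped it (fitted change 0.80, adjusted p = 0.00491, edgeR). Its best shape was a threshold at 100 mg/kg/d, and top dose only without replicates 05 and 18. Dhh, the hedgehog ligand of Sertoli cells, had means of 114%, 104%, 115% and 146% of vehicle (fitted change 0.44, adjusted p = 0.0273, edgeR). This call was lost with the sample code in the model and without any of 6 libraries: vehicle replicates 01 and 08 and 300 mg/kg/d replicates 07, 13, 14 and 20. Dhh was the only one of 13 hedgehog and PDGF genes called, beside 5.72% of all genes, so the count is not read as a result about these genes. Without replicates 05 and 18, 2 rose and 1 fell, and none was called with the sample code in the model.

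The Sertoli list members that fell were Inha, Nr0b1 and Vnn1, of which Inha is the alpha subunit of inhibin. It held 913, 654 and 906 CPM in vehicle, 884, 644 and 758 at 1 mg/kg/d, 591, 535 and 520 at 11, 444, 523 and 356 at 100, and 343, 346, 446.5, 366 and 264 at 300 mg/kg/d. Libraries from 11 mg/kg/d up lay below those of vehicle and 1 mg/kg/d, and each neighbouring pair above that overlapped (fitted change -1.21, SE 0.126, adjusted p = 1.75e-06, edgeR). Of 18 genes of activin, inhibin, Nodal and BMP signals 2 fell and 1 rose, beside 2.98% and 2.74% of all genes. Beside Inha, Lefty2, an inhibitor of Nodal, fell, to 30.4% of vehicle at 11 and 12.1% at 300 mg/kg/d, and Bmp7 rose. Of 17 retinoid metabolism genes 2 rose and 3 fell, and with the sample code in the model 1 fell and none rose, beside 5.72% of all genes called.

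Among germ cell markers 9 of 25 rose and none fell, beside 2.74% and 2.98% of all genes. All 25 had a positive fitted change, with a median of 0.48. Over all genes 9925 of 18005 were positive, with a median of 0.03. With the sample code in the fit 4 rose, and 10 rose without replicates 05 and 18. The list's medians against vehicle were -0.28, 0.09, 0.56 and 0.31 log2 units in order of dose, so they were highest at 100 mg/kg/d, where the list's median was 0.30, 0.82 and 0.39 in replicates 05, 18 and 19. Nanos2, a factor of male germ cell fate, held 0.696, 1.23 and 1.24 CPM in vehicle, between 0.935 and 1.40 at 1 mg/kg/d, 0.848, 1.93 and 0.785 at 11, 2.65, 4.63 and 2.36 at 100, and 1.51, 2.87, 3.39, 4.67 and 2.42 at 300 mg/kg/d. The upper doses lay above vehicle, with replicate 06 at 300 mg/kg/d inside the range of 11 (fitted change 1.69, SE 0.324, adjusted p = 0.0027, edgeR). Without replicates 05 and 18 the fitted change was 1.54 for Nanos2. Ddx4, an RNA helicase of germ cells, was not called by the slope (fitted change 0.45, adjusted p = 0.217, edgeR), at 52.0, 69.9 and 53.5 CPM in vehicle, 94.8, 118 and 68.2 at 100, and 58.3 to 67.5 with a mean of 105% of vehicle at 300 mg/kg/d.

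Any difference among the 5 groups was called for 1109 genes (6.16%), of which 645 were also called by the slope and 464 were not. The 1109 became 517 without replicate 18, 5913 without replicate 19, and between 623 and 708 without 1 mg/kg/d replicates 09 or 10 or 300 mg/kg/d replicates 07, 14 or 20. A peak at 100 mg/kg/d was the best shape for 307 of these 464, with 241 higher and 66 lower. Of the 241, 236 were higher in replicate 05 than in all 14 libraries of other doses and 238 were in replicate 18, against 32 in replicate 19. Of the 66, 64 and 60 were lower than all those libraries in replicates 05 and 18, and 20 in replicate 19. Dppa4, a pluripotency factor, held 103, 121 and 119 CPM in vehicle, 209, 213 and 130 at 100, and 113 to 128 at 300 mg/kg/d. The germ cell markers Ddx4, Dppa3, Mael, Sycp3 and Stk31, 5 of 25, and 4 of 13 genes of the mitochondrial genome were among the peaks. Over all genes it was 307 of 18005. Col1a1 and Col1a2 of the fibroblast list, Cdh5 of the endothelial, Lyz2 of the macrophage and Ucp2 of the PPAR list were peaks too. Replicates 05 and 18 also had the raised shares of mitochondrial and ribosomal protein counts given above, and the part of that in the peaks was not tested.

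Of 24 cell cycle genes tested 8 fell and none rose, 7 of the 8 with a threshold at 100 mg/kg/d, against 2.98% of all genes that fell. With the sample code in the model 3 fell, and 10 fell without replicates 05 and 18. The list's summed level at 100 mg/kg/d was 3753, 3425 and 2792 CPM in replicates 05, 18 and 19, so the libraries of that dose were far apart. Mcm5, a subunit of the replication helicase, had means of 98.0%, 103%, 81.8% and 83.0% of vehicle (fitted change -0.31, SE 0.0742, adjusted p = 0.0136, edgeR), and Rrm2, a ribonucleotide reductase subunit, 94.4%, 96.2%, 72.1% and 77.2%. Of 19 genes of p53 targets and cell death, Pmaip1, a promoter of cell death, alone was called, beside 5.72% of all genes. It held 6.46, 11.1 and 11.6 CPM in vehicle, 8.73, 7.04 and 7.13 at 1 mg/kg/d, 10.2, 10.8 and 10.2 at 11, 15.3, 20.6 and 14.0 at 100, and 19.2, 24.3, 21.7, 20.1 and 19.7 at 300 mg/kg/d. The upper doses lay above all lower groups (fitted change 1.32, SE 0.161, adjusted p = 1.48e-05, edgeR).

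Leydig cell markers had the most called members of the cell type lists. The lists and members, here and above, were chosen with earlier results of these data known, so no conclusion is drawn from this ranking. Of 20 Leydig cell markers 11 fell and 1 rose, beside 2.98% and 2.74% of all genes. The marker that rose was Ptgds, which also stands in the Sertoli list. The summed level of the Leydig cell markers ranged from 6284 to 7798 CPM in vehicle and from 1999 to 2905 CPM at 300 mg/kg/d. Of 15 fibroblast markers 3 fell, of 13 endothelial markers 2 fell (6 without replicates 05 and 18), and of 15 macrophage markers 1 fell, Tyrobp, beside 2.98% of all genes. With the sample code in the model 1 fibroblast and 1 endothelial marker fell. None of 12 peritubular myoid or 14 red blood cell markers was called by the slope with edgeR or DESeq2, with 0 and 2 at an unadjusted p under 0.05. At the step from 11 to 100 mg/kg/d, however, 6 of the 14 red blood cell markers were called by edgeR, beside 4.74% of all genes. That step called 0 genes without replicate 18. The summed level of red blood cell markers ranged from 9075 to 10703 CPM in vehicle, 5538 to 10146 at 1, 2606 to 9426 at 11, 11580 to 16956 at 100 and 6164 to 14896 at 300 mg/kg/d. No marker of these cell types was without a count.

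Of 11 mesonephric and epididymal duct markers, Lcn2, Krt18 and Krt8 rose and Cdh1 fell, beside 2.74% and 2.98% of all genes. Lcn2, a secreted lipocalin, held 11.6, 22.7 and 13.9 CPM in vehicle, 24.0, 24.5 and 19.8 at 1 mg/kg/d, 26.6, 25.4 and 23.0 at 11, 39.1, 85.6 and 26.2 at 100, and 57.9, 53.9, 60.7, 75.0 and 77.7 at 300 mg/kg/d. The top dose lay above every lower dose except replicate 18 at 100 mg/kg/d (fitted change 1.92, SE 0.226, adjusted p = 9.95e-06, edgeR). The summed level of the duct markers was 412 to 456 CPM in vehicle and 435 to 519 CPM at 300 mg/kg/d.

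**Figure D4:**
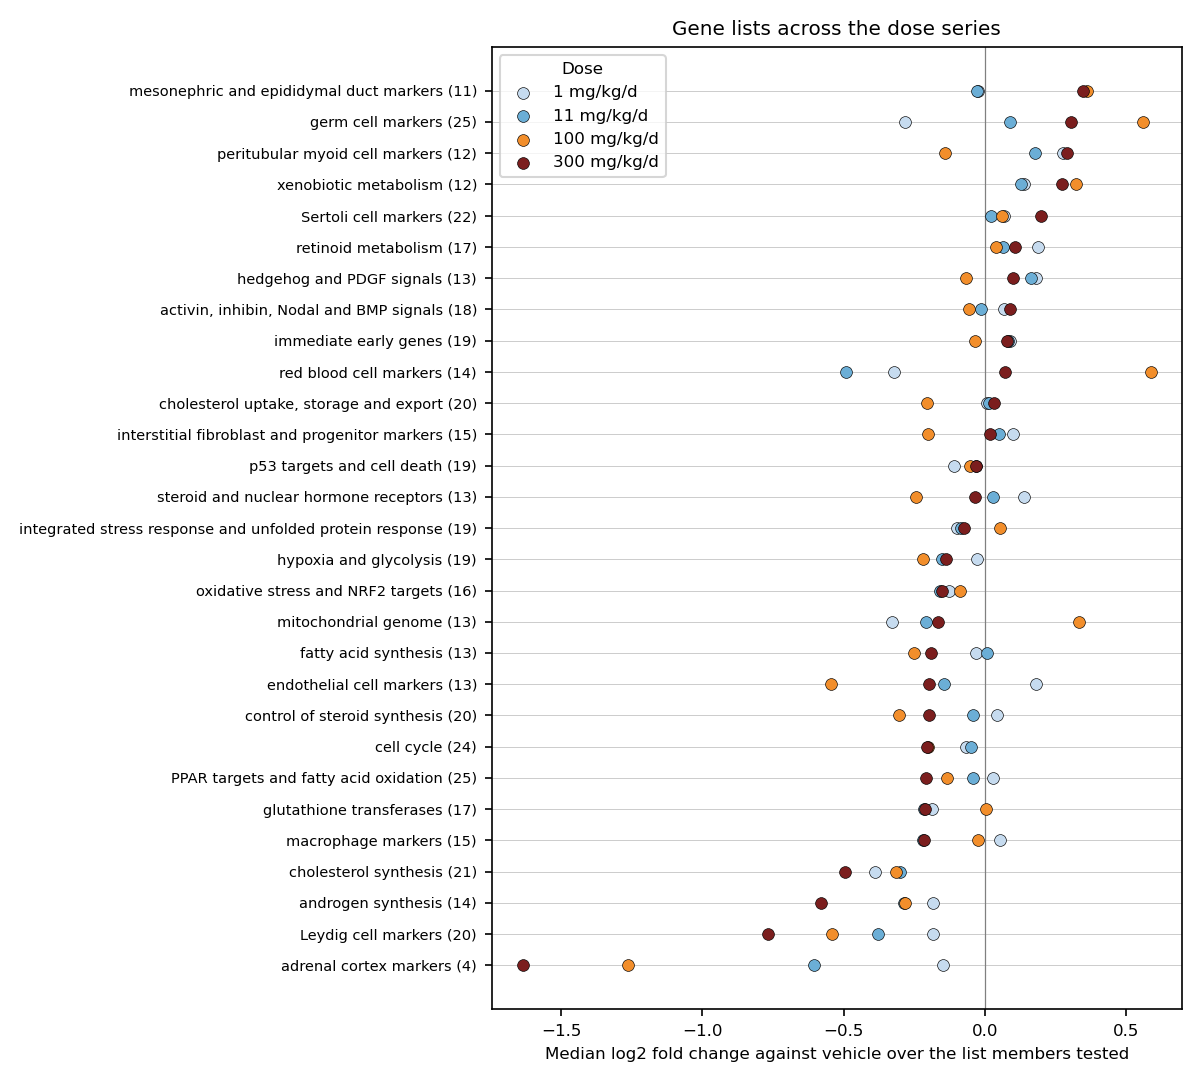
Median log2 fold change against vehicle over the tested members of each gene list (number in parentheses) at the 4 doses, ordered by the value at 300 mg/kg/d; the doses share the vehicle libraries. The Leydig cell list moved down with each dose to -0.77, and androgen synthesis had -0.18, -0.29, -0.28 and -0.58 in order of dose. The adrenal cortex list, with 4 genes tested, was lowest at 300 mg/kg/d, at -1.64. The germ cell, red blood cell and mitochondrial lists had their highest value at 100 mg/kg/d. In replicate 19 alone the mitochondrial median was -0.24, against 0.66 and 0.46 in replicates 05 and 18.

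The slopes were also fitted within each sample code, on libraries that no other code shares. Within S447 43 genes (0.232%) were called, 6 that rose and 37 that fell, and within S448 182 (0.986%), 42 and 140. All 43 had the same sign in S448 and an unadjusted p under 0.05 there, a share that was 10.2% over all genes, and 40 were called in both. Of the 182, 181 had the same sign in S447 and 144 an unadjusted p under 0.05, against 7.42% of all genes. The fitted change within S447 and S448 was -1.96 and -2.03 for Star, -1.73 and -2.10 for Cyp17a1, -1.85 and -2.12 for Cyp11a1 and -2.53 and -2.72 for Insl3. It was -3.28 and -3.75 for Mrap, -7.10 and -7.12 for Gsta2, 0.96 and 1.66 for Cpe, 1.23 and 1.00 for Dusp27, 1.03 and 0.63 for Amh, and 1.27 and 1.54 for Pmaip1. Dusp27 and Amh were called in neither code, and Cpe and Pmaip1 were not called in S447.

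**Figure D5:**
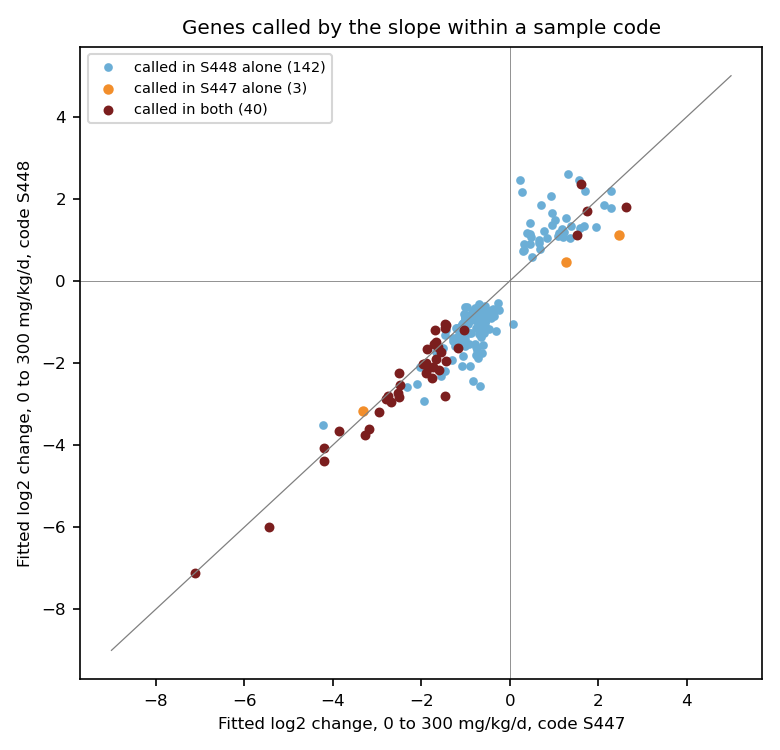
Fitted log2 change from 0 to 300 mg/kg/d within sample code S447 (x axis, 8 libraries) against that within S448 (y axis, 7 libraries) for genes called in either; the grey diagonal marks equal change. The 40 genes called in both codes lie near the diagonal, and 142 were called in S448 alone and 3 in S447 alone.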

How the data were processed

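RNA was measured in 17 libraries. Per the submitters' processing notes, the authors used Trimmomatic 0.36, STAR 2.5.2b and featureCounts of Subread 1.5.2 on mRatBN7.2, and DESeq2 and limma without a stated role. The library kit does not mark strand, so overlapping and antisense genes carry uncertain counts. The deposited raw count table had 47125 rows for 30652 identifiers. Each was kept once and 92 ERCC rows were dropped, leaving 30560 genes. Fold changes are relative to the gene counts of each library after the TMM scaling given below.

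In R 4.3.3, edgeR 4.0.16 fitted all libraries with TMM scaling, filterByExpr by dose group and quasi-likelihood F tests, with Benjamini-Hochberg adjustment over the 18005 genes tested. Tests were the slope on log2(dose + 1), any difference among groups (4 degrees of freedom), departure from the line (3) and the 4 steps. Log2 CPM used a prior count of 2. CPM were scaled with TMM library sizes. A shape was the best of 6 patterns by residual sum of squares.

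Of 530 entries in 29 gene lists, 507 matched a gene and 483 were tested. Named genes were a panel of 25, up to 4 per shape and direction by the size of the fold change (mean CPM of at least 1), up to 3 called members per list or the 2 highest by mean CPM where none was called, the 6 with the smallest departure p, and all genes of steps with few calls. Not every one is described, and some results are not reported here. The members and lists were chosen with earlier results of these data known. Alternatives were other size factors, no filter, DESeq2 1.42.0, limma 3.58.1, the sample code, other dose scales and libraries or groups left out. Those without both replicates 05 and 18 and within a code were added after seeing the data. The tests were checked on simulated counts. No 2 libraries of the same dose agreed within sampling noise, and pairs across doses were not compared.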

Additional observations from a re-analysis of the deposited data

Results flagged for a closer look

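Cyp11a1 stood at 215 CPM in replicate 20 at 300 mg/kg/d, apart from the other 4 libraries of that dose, which lay between 287 and 304 CPM. The gap was 0.814 of the group's range, above the limit of 0.71 for 5 samples. The share of ribosomal protein counts was lowest in the same library, 5.04% against 5.31% to 5.41%, with a gap of 0.726 of the range. These were 2 such gaps among 25 genes and 2 library measures tested in the top dose group, and chance gives about 1 in 20 groups.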

How the results depend on the processing

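None of the 92 named genes called by the slope changed sign under an alternative. Hsd3b1, called under 3 alternatives but not in the full data, was at 0.17 without the 300 mg/kg/d group. Of the 92, 25 stayed called under all 27 alternatives over the groups. The slope called 586 genes with the sample code in the fit, 583 on dose itself, 227 without the 300 mg/kg/d group, 1711 without replicates 05 and 18 (1012 of them among the 1030), and 43 and 182 within S447 and S448. Any difference called 581 with the code and 2843 by DESeq2, and departure 181 with no filter and 902 by DESeq2. The step from vehicle to 1 mg/kg/d called 1 with no filter. That from 1 to 11 called 6 with no filter and 10 by DESeq2, and that from 11 to 100 called 163 with the code and 2186 by DESeq2. The step from 100 to 300 called 225 with no filter, 0 with the code and 1145 by DESeq2. Step counts without 05 and 18 rest on 1 library at 100 mg/kg/d and are not given. A plateau from 1 became 8 with equal group weight, and a peak at 100 became 1 without 05 and 18 and 6 with equal group weight. The cause was not tested.

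Leaving out 1 library at a time gave 746 to 1503 for the slope, 517 to 5913 for any difference, 0 to 4745 for departure, and 0 to 1, 0 to 3, 0 to 5886 and 0 to 5872 for the 4 steps in order of dose. It gave 315 to 404 graded, 61 to 162 top dose, 384 to 490 threshold, 74 to 148 plateau from 11, 2 to 10 plateau from 1 and 1 to 12 peak genes. The values 5913, 4745, 5886 and 5872 all came without replicate 19 at 100 mg/kg/d. Libraries could not be paired by replicate number because the groups share none. The sample code, which recurs across groups, was fitted as a term instead, with the counts given above.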

Other observations

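Cdh1, a cell adhesion gene called by the slope (fitted change -2.99, adjusted p = 0.0189, edgeR), had values far apart within groups rather than a graded course. Vehicle held 145, 116 and 57.3 CPM, 1 mg/kg/d held 5.11, 143 and 6.43, 11 mg/kg/d held 61.7, 58.0 and 2.98, and 100 mg/kg/d held 3.70, 7.92 and 53.2. At 300 mg/kg/d all 5 libraries lay between 7.08 and 14.5 CPM. Its call was lost without vehicle replicate 01, on dose itself, without the 300 mg/kg/d group and with limma.

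Svs5, a secretory protein known from the seminal vesicle, ran graded, with means of 57.6%, 30.6%, 23.3% and 5.46% of vehicle (fitted change -3.48, SE 0.46, adjusted p = 4.23e-05, edgeR). Its libraries at 100 mg/kg/d held 35.6, 79.8 and 17.8 CPM. Unc45b, a myosin chaperone, and Hrc, a calcium-binding protein of the sarcoplasmic reticulum, were higher at the top dose, at 273% and 378% of vehicle. Myh6, a cardiac myosin, stood at 154%, 137%, 63.1% and 50.2% of vehicle (fitted change -1.46, adjusted p = 0.00386, edgeR). Cdkn1c, an inhibitor of the cell cycle, had a plateau from 11 mg/kg/d, at 101%, 75.2%, 67.6% and 72.9% of vehicle (fitted change -0.52, adjusted p = 0.00404, edgeR).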
